A study of Mus musculus with 6 samples.

Results

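The transcripts of 10 genes typical of resident macrophages, Adgre1, Cd68, C1qa, C1qb, C1qc, Mrc1, Cd163, Lyz2, Aif1 and Nckap1l, were followed library by library in bulk RNA sequencing of the submandibular gland (SMG) of adult female mice. They were taken by name from the unfiltered raw count table of 43280 rows. All 10 had a row, with Adgre1 listed under its older symbol Emr1, which RefSeq gives as a synonym. The series compared 3 glands labelled Wildtype (WT) with 3 labelled Hs3st3a1;3b1 DKO. The mice were on a C57BL/6 background, and the DKO allele joined a short frameshift deletion in exon 1 of Hs3st3a1, made with a zinc finger nuclease, to a LacZ cassette at Hs3st3b1. Both genes encode heparan sulfate 3-O-sulfotransferases, and their loss was inherited in every cell, not driven in 1 cell type. The sources used here give no exact ages, do not say which of several founder lines gave the glands, and do not say whether the glands of a group came from separate mice, so p-values measure the spread between these libraries only.

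Resident macrophages live in the connective tissue of the gland, among the acini, ducts, vessels and nerves. They engulf dead cells and debris, make complement C1q, and depend on signaling through the CSF1 receptor. In a mouse tissue they are usually recognized by the surface receptor F4/80, which is the product of Adgre1, together with scavenger receptors and lysosomal proteins. Macrophages are a small part of a gland that is mostly secretory epithelium, and their transcripts are read here within whole-gland RNA. Fewer macrophages and less macrophage RNA per cell therefore cannot be told apart.

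Libraries held between 23674258 and 29611975 counts. The 10 macrophage genes together took 175, 85.3 and 162 CPM (counts per 1e6 counts of the library) for WT 1, 4 and 5 by their labels, and 76.8, 58.3 and 45.0 CPM for DKO 1, 4 and 5. CPM depends on the share of the 10 most abundant rows, which was 57.9, 61.9 and 58.5% against 62.6, 66.2 and 65.6%. In counts divided by DESeq2 size factors, the macrophage sums were 4108, 2251 and 3965 against 2059, 1804 and 1342. The libraries WT 1 and WT 5 were the high ones, WT 4 stood apart from them, and DKO 5 was the lowest. The targeted genes did not separate the groups, since Hs3st3a1 had 15, 11 and 15 counts against 11, 8 and 13, and Hs3st3b1 had 173, 203 and 261 against 255, 120 and 189. Directions below therefore rest on the labels. By quantitative PCR, the study itself reported no expression of either gene in adult DKO glands of both sexes. The tissue label was matched by Spt1, a secreted salivary gene and the most abundant of the epithelial list, with 8386042 to 11647503 counts. Of the 9 gland epithelium genes checked, 2 were lower and 1 higher by DESeq2 (1.88% and 1.02% of all rows tested). Egf of the granular ducts was among those lower, and Aqp5 of the acini was the 1 higher. The number higher was 0 without WT 1, WT 5, DKO 4 or DKO 5, 2 without WT 4 and 3 without DKO 1.

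All 10 macrophage genes had a negative log2 fold change of DKO over WT, and 5 of them fell with an adjusted p-value under 0.05 in the DESeq2 fit over all genes. Those 5 were Adgre1, Mrc1, Lyz2, C1qa and C1qb. By comparison, 1.88% of the 18606 rows tested were lower at that threshold, or 2.18% of those given an adjusted p-value, and 2.9% changed in either direction. The median log2 fold change of the 10 was -0.75, against 0.0011 over all rows tested, and single genes ran from -1.40 (Lyz2) to -0.30 (Cd68). In 5 of the 10, namely Adgre1, Mrc1, Cd163, Lyz2 and Aif1, every library labelled DKO was below every library labelled WT in normalized counts, which was so for 10.5% of all rows tested and 10.4% of those with a mean of at least 50. Unadjusted p-values under 0.05 were found in 9 of the 10, all lower, against 7.26% of all rows. The calls depended on the test. With edgeR's quasi-likelihood test 0 of the 10 passed after adjustment and 9 had an unadjusted p-value under 0.05, and with limma-voom the counts were also 0 and 9. Over all rows, edgeR called 0.0269% lower after adjustment and 8.67% before it, and limma-voom called 0.0215% after adjustment.

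**Figure D1:**
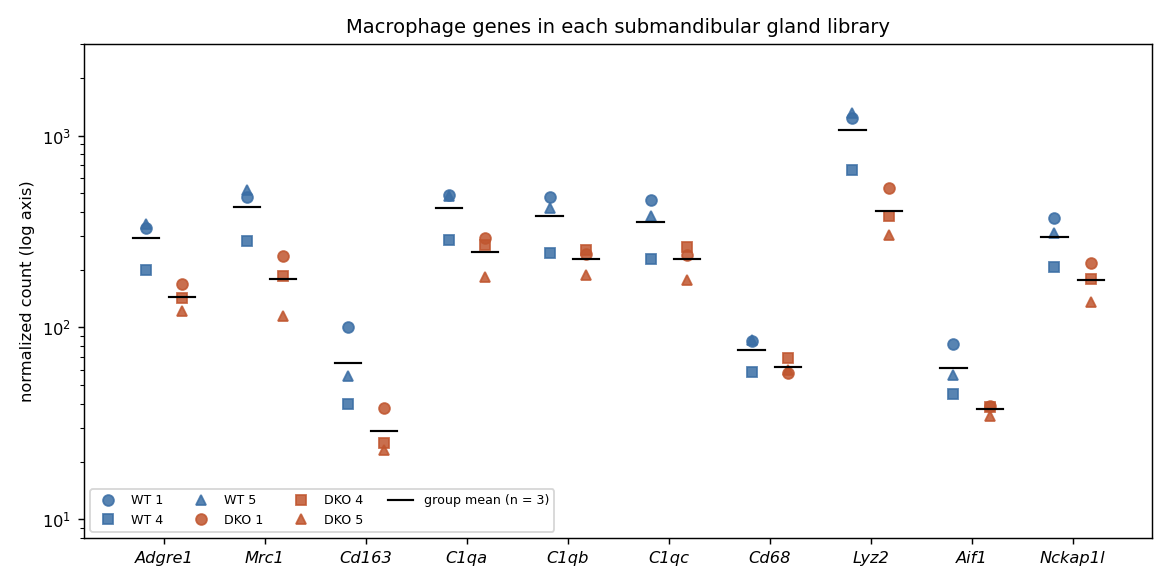
Normalized counts (counts divided by DESeq2 size factors, log axis) of the 10 macrophage genes in each library, with WT in blue, DKO in orange, 1 symbol per label number, and a bar for each group mean (n = 3). Of the 3 libraries labelled WT, WT 4 lies lowest for every gene, and for C1qa, C1qb, C1qc, Cd68 and Nckap1l it lies within or below the range of the libraries labelled DKO.

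The calls changed when single libraries were left out, which also made a group smaller. Leaving out WT 4, the lowest library of its group, raised the number of genes called from 5 to 8, all but Cd68 and Aif1. Leaving out DKO 1 left it at 5, with Nckap1l in and C1qb out. Without WT 1, WT 5, DKO 4 or DKO 5 it fell to 1 each time, which was Mrc1, Lyz2, Adgre1 and Mrc1 in that order. Over all genes, the number called fell from 539 to 151, 149, 170 and 166 in the same fits. The smaller group and the library left out cannot be told apart as reasons for the lost calls. With total counts as size factors 8 were called, a scaling that moved the median of all rows by -0.23. All 10 log2 fold changes stayed negative under each of the 15 alternatives, with a median between -0.99 and -0.59.

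Of the surface receptors, Adgre1 and Mrc1 fell and Cd163 did not pass the test. Adgre1 encodes F4/80, an adhesion receptor of the EGF-TM7 family and the classical mouse macrophage marker. It lies on chromosome 17 from 57358691 to 57483527 in GRCm38, plus strand. Its counts were 335, 204 and 385 for WT 1, 4 and 5, and 177, 137 and 105 for DKO 1, 4 and 5. No library labelled DKO reached the lowest labelled WT. The mean fell from 292 ± 80.3 to 144 ± 23.4 normalized counts (SD, n = 3), with a log2 fold change of -1.02 (SE 0.23, with an adjusted p of 0.00181 in DESeq2). The call was lost without WT 1 (adjusted p = 0.0873), WT 5 (0.107) or DKO 5 (0.0672).

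Mrc1 encodes the mannose receptor CD206, which takes up mannose-bearing glycoproteins and marks tissue macrophages. It is on chromosome 2 from 14229392 to 14332057, plus strand. Mrc1 had 483, 287 and 579 counts under the WT label and 248, 178 and 100 under the DKO label. The groups did not overlap, and DKO 5 had the fewest counts. The mean fell from 426 ± 127 to 179 ± 60.3 normalized counts, 42.0% of the WT level (-1.25 ± 0.27 SE on the log2 scale, adjusted p = 5.17e-04 in DESeq2). Mrc1 was called in 4 of 6 fits without 1 library, and lost the call without WT 5 (adjusted p = 0.0733) or DKO 4 (0.228). Its edgeR adjusted p-value was 0.147.

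Cd163 encodes the scavenger receptor that clears haemoglobin bound to haptoglobin. It lies on chromosome 6 from 124304656 to 124330527, plus strand, and it was the scarcest of the 10 genes for its length. Its counts were 101, 41 and 62 against 40, 24 and 20. The groups were separate only narrowly once scaled, with WT 4 at 40.1 normalized counts and DKO 1 just below it. The log2 fold change of -1.18 (SE 0.41) did not pass the threshold (DESeq2 adjusted p = 0.0902), and it was -0.73 without WT 1 (adjusted p = 0.704).

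C1qa, C1qb and C1qc encode the 3 chains of C1q, the recognition part of complement C1, which binds antibody complexes and dying cells. They lie side by side on the minus strand of chromosome 4 within 18.7 kb, at 136895917 to 136898803 (C1qa), 136880129 to 136886187 (C1qb) and 136889804 to 136893065 (C1qc). The stretches of 250 bases before the RefSeq starts of C1qb and C1qc are printed because these genes are neighbours in 1 complex, and that of Mrc1 because it carries the largest number of matches among the members. Capitals mark the letters GAGGAA, or TTCCTC on the other strand, the core of the DNA motif of PU.1, an ETS factor of myeloid cells. Sequences are from RefSeq (GRCm38.p6), read 5′ to 3′ on the gene's strand, at chr4:136886201-136886450 (minus), chr4:136892915-136893164 (minus) and chr2:14229164-14229413 (plus).
C1qb: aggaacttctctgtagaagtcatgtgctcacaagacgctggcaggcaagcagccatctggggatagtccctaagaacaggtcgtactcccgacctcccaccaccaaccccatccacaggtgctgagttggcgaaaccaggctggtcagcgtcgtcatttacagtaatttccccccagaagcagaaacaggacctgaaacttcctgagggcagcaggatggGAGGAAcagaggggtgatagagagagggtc
C1qc: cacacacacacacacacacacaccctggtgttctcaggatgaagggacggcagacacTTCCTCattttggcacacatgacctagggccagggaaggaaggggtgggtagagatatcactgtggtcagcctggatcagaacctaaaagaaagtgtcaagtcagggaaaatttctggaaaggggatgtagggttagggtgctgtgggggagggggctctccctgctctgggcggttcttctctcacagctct
Mrc1: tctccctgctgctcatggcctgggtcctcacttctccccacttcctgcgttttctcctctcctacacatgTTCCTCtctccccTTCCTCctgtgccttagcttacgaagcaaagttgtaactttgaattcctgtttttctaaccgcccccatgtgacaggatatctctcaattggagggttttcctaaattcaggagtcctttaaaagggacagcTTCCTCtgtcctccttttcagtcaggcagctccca

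Promoter windows of 250 bases before to 50 after the start were found for 7 of the 10 genes, all but Adgre1, C1qa and Nckap1l. GAGGAA was found on either strand in 5 of those 7 (Mrc1, C1qb, C1qc, Cd68 and Aif1), and in 28.3% of all 32851 windows. The letters TGCTGA, part of the motif of MAF factors, were found in C1qb and Lyz2, and in 19.5% of all windows. The core of the interferon-stimulated response element was found in Aif1 alone of the 7, and in 3.44% of all windows. It can overlap GAGGAA by a few bases. A match describes the letters only, and binding was not measured.

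C1qa had 496, 293 and 538 counts under the WT label and 308, 257 and 159 under the DKO label. Its groups touched, since WT 4 (287 normalized counts) lay just under DKO 1 (292). The mean fell from 419.8 ± 115 to 248 ± 57.3 normalized counts (-0.76 ± 0.23 SE on the log2 scale, adjusted p = 0.0364 in DESeq2). C1qb had 482, 250 and 467 counts against 254, 243 and 163, and fell by 0.74 on the log2 scale (SE 0.23, with an adjusted p of 0.0468 in DESeq2). C1qc had 466, 231 and 426 counts against 252, 250 and 154, with a log2 fold change of -0.66 (SE 0.24, with an adjusted p of 0.123 in DESeq2). For C1qb and C1qc too, WT 4 lay below 1 or more libraries labelled DKO. Without WT 1 the adjusted p-values of C1qa, C1qb and C1qc were 0.427, 0.526 and 0.733. Without WT 4 they were 6.86e-04, 5.75e-05 and 0.00172. C1qb was also not called with no count filter (adjusted p = 0.0501) or with independent filtering off (0.054).

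The 3 C1q chains are assembled in equal numbers in the protein, and their counts moved in nearly fixed proportions. C1qa made up 33.4 to 37.9% of their summed counts, C1qb 31.2 to 34.2% and C1qc 29.8 to 33.3% over the 6 libraries. Per kb of exon, the level of C1qc was lower, at 184 ± 61.9 normalized counts in WT against 404 ± 111 for C1qa and 349 ± 111 for C1qb, with exons of 1931 bp against 1040 and 1088 bp.

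**Figure D2:**
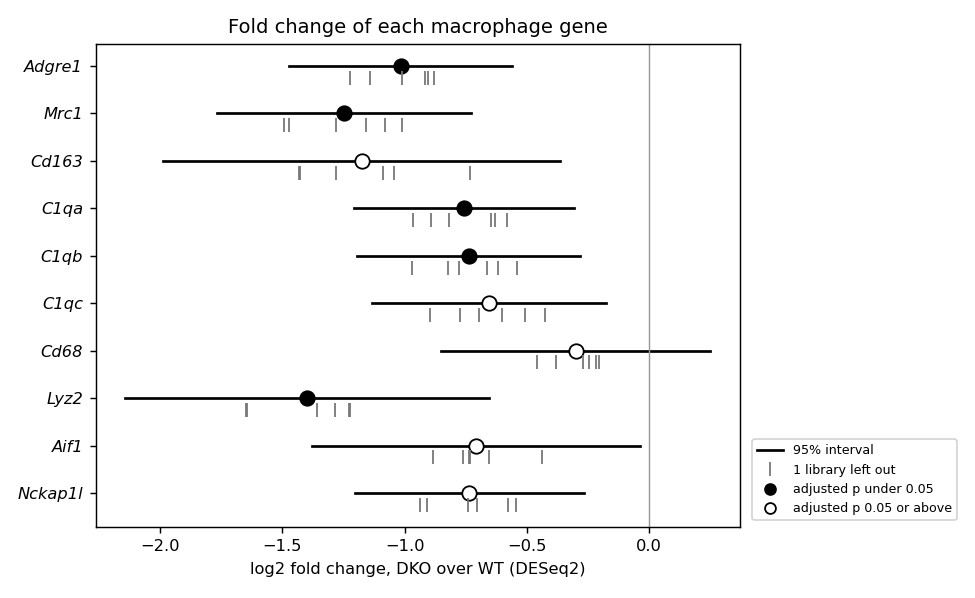
Log2 fold change of DKO over WT from DESeq2 for each macrophage gene (circles, filled where the adjusted p-value was under 0.05), with 95% intervals as lines and the values with 1 library left out as ticks. Every circle and tick lies below 0, and the interval of Cd68, from -0.85 to 0.25, includes 0.

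Of the lysosomal and secreted genes, Lyz2 and Cd68 were at opposite ends. Lyz2 encodes lysozyme M, an enzyme that cuts bacterial cell walls and is made by macrophages, monocytes and neutrophils. It lies on chromosome 10 from 117277331 to 117282321, minus strand. Its counts were 1244, 677 and 1465 against 560, 363 and 263, and the groups did not overlap. The mean fell from 1068 ± 354 to 405 ± 116 normalized counts, 37.9% of the WT level. The log2 fold change was -1.40 (SE 0.38, with an adjusted p of 0.0136 in DESeq2, edgeR 0.126). The call was lost without WT 1 (adjusted p = 0.22), DKO 4 (0.158) or DKO 5 (0.146).

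Lyz1, the neighbouring copy that is known from Paneth cells of the intestine, begins 5475 bp further along the chromosome. It had 24, 28 and 47 counts against 14, 3 and 5, a log2 fold change of -2.05 (SE 0.60, with an adjusted p of 0.0278 in DESeq2). The first 120 coding bases of both genes from GENCODE M21 are shown because a coding read can be credited to Lyz2 rather than Lyz1 only where they differ, and capitals mark those bases.
Lyz2: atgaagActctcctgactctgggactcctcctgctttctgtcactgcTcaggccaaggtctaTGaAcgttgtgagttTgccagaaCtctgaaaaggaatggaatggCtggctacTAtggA
Lyz1: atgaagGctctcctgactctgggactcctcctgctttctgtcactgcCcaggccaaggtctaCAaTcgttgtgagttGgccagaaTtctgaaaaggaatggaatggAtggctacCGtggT
The coding sequences differed at 22 of 444 bases, 11 of them in this stretch, and the longest identical coding run was 118 bases. Of all 50-base words in Lyz2 transcripts, 15.4% also occurred in Lyz1. How the authors treated such reads is not stated, so part of the Lyz1 count may belong to Lyz2. The share of words found in another gene was 0.11% for Cd163 and 0 for the other 8 macrophage genes, and the exons of the 10 genes overlapped no other annotated gene.

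Cd68 encodes macrosialin, a glycoprotein of the lysosome membrane, and is on chromosome 11 from 69664213 to 69666153, minus strand. It had 86, 60 and 96 counts under the WT label and 61, 66 and 52 under the DKO label. The groups overlapped, with WT 4 inside the range of DKO. Its mean was 76.6 ± 15.5 against 62.3 ± 5.91 normalized counts. The log2 fold change was -0.30 (95% interval -0.85 to 0.25, DESeq2 adjusted p = 0.753), and Cd68 was called under 0 of the 15 alternatives, with unadjusted p-values of 0.285 by DESeq2 and 0.194 by edgeR. The interval includes a change as large as that of C1qa.

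Aif1 and Nckap1l act on the actin skeleton. Aif1 encodes IBA1, a calcium-binding protein that bundles actin and marks macrophages and microglia, and lies on chromosome 17 from 35170991 to 35176068, minus strand. It had 83, 46 and 63 counts against 41, 37 and 30, with no overlap. Its log2 fold change was -0.71 (SE 0.34, with an adjusted p of 0.32 in DESeq2), and it was called under 0 of the 15 alternatives, with unadjusted p-values of 0.039 by DESeq2 and 0.0281 by edgeR. Nckap1l encodes HEM1, the subunit of the actin-nucleating WAVE complex that blood cells use in place of NCKAP1, so it marks leukocytes in general. It lies on chromosome 15 from 103453794 to 103498810, plus strand. Nckap1l had 375, 212 and 346 counts against 229, 171 and 118, and WT 4 fell just under DKO 1 after scaling. Its log2 fold change was -0.74 (SE 0.24, with an adjusted p of 0.056 in DESeq2), and it was called without WT 4 (adjusted p = 0.00354), without DKO 1 (0.0315) and with total counts as size factors.

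Ordered by mean normalized count per kb of exon in WT, Lyz2 was highest at 812 ± 269 (SD, n = 3). C1qa, C1qb and C1qc came next with the values given above, and C1qa and C1qb differed by less than their SDs. Adgre1 (90.2 ± 24.8), Mrc1 (66.8 ± 20.0), Cd68 (60.9 ± 12.3), Nckap1l (49.9 ± 13.9) and Aif1 (39.9 ± 12.4) followed, with each neighbour closer than the larger of their SDs. Cd163 was lowest at 11.9 ± 5.69. Gaps larger than the SDs of both neighbours lay between Lyz2 and C1qa, between C1qb and C1qc, between C1qc and Adgre1, and between Aif1 and Cd163. In DKO, Cd68 (49.5 ± 4.70) stood above Adgre1 (44.5 ± 7.24) and Mrc1 (28.1 ± 9.47) in mean, and the gap of Lyz2 (307 ± 88.2) to C1qa (239 ± 55.1) was smaller than the SD of Lyz2.

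The C1q sum served as a scale within each library. Lyz2 had 86.1, 87.5 and 102 counts per 100 C1q counts for WT 1, 4 and 5, and 68.8, 48.4 and 55.3 for DKO 1, 4 and 5. Mrc1 had 33.4, 37.1 and 40.5 against 30.5, 23.7 and 21.0, and Adgre1 had 23.2, 26.4 and 26.9 against 21.7, 18.3 and 22.1. For these 3 ratios the groups did not overlap, WT 4 included, though narrowly for Adgre1 (WT 1 at 23.2, DKO 5 at 22.1). How many other genes would separate on this scale was not counted. In plain normalized counts, 10.5% of all rows tested had every library labelled DKO below every library labelled WT. C1qa and C1qb, which are part of the scale, were themselves called lower. The ratios of Nckap1l (24.2 to 27.4 against 22.8 to 28.1), Aif1 (4.40 to 5.94 against 4.93 to 6.30), Cd163 (4.33 to 6.99 against 3.20 to 4.91) and Cd68 (5.96 to 7.75 against 7.49 to 10.9) overlapped. The ratios are descriptions, since with 3 against 3 libraries the smallest two-sided p of an exact permutation test is 0.1.

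**Figure D3:**
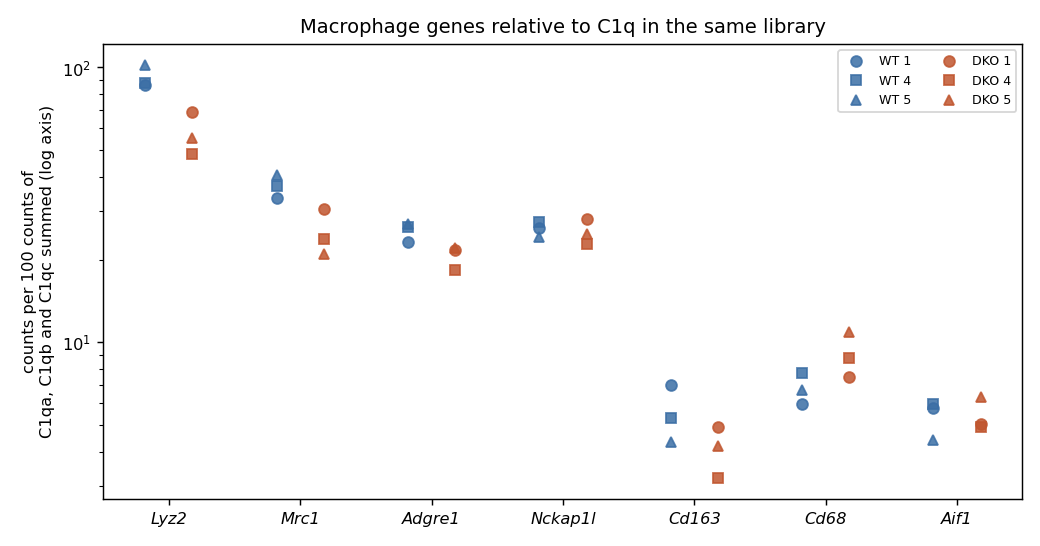
Counts of 7 macrophage genes per 100 summed counts of C1qa, C1qb and C1qc in the same library (log axis), with WT in blue and DKO in orange. Lyz2, Mrc1 and Adgre1 lie lower in every library labelled DKO, narrowly for Adgre1, while the other 4 genes overlap. The share of all genes that would separate on this scale was not counted.

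A further list of 28 genes of macrophage identity was read beside the 10. Of the 25 tested, all 25 had a negative log2 fold change, and 6 were lower and 0 higher by DESeq2 (1.88% and 1.02% of all rows), with a median of -0.80. Without WT 1, WT 5, DKO 4 or DKO 5 the number lower was 1, 1, 2 and 2, without WT 4 it was 14 and without DKO 1 it was 9. Maf, a transcription factor of resident macrophages that other cells express too, had 609, 476 and 843 counts against 330, 227 and 213 (-1.19 ± 0.19 SE on the log2 scale, adjusted p = 3.47e-07 in DESeq2). Mpeg1, which encodes the pore-forming protein perforin-2, had 946, 661 and 1002 counts against 598, 393 and 403 (-0.78, adjusted p = 9.53e-04). Siglec1, the sialic acid receptor CD169, had 181, 64 and 235 counts against 67, 43 and 23 (-1.74, adjusted p = 0.00304), and its groups overlapped after scaling. Laptm5, a lysosomal membrane protein of leukocytes, fell by 0.80 on the log2 scale (adjusted p = 0.0163). Csf1r, the receptor on which macrophages depend and chosen after its values were seen, had 764, 573 and 921 counts against 616, 422 and 402 (-0.52, adjusted p = 0.0584). Vsig4 had 0 counts in each library and Marco at most 1, which allows Vsig4 up to 0.127 CPM in the shallowest library by counting error alone.

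Of 6 ligands and recruiting factors for macrophages 5 were tested, and 0 passed the threshold in DESeq2, with 1 unadjusted p-value under 0.05, and 0 and 1 in edgeR. Their median log2 fold change was -0.20. Csf1, which encodes the main growth factor, had 576, 586 and 616 counts against 574, 462 and 491, a log2 fold change of -0.09 (95% interval -0.33 to 0.15, adjusted p = 0.868).

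C1q acts with the proteases C1r and C1s at the head of the classical complement pathway. Of 13 tested genes of that pathway, 4 were lower and 0 higher by DESeq2 (1.88% and 1.02% of all rows). Their median log2 fold change was -0.75. C1s1, which encodes the C1s protease, had 853, 587 and 921 counts against 540, 417 and 326 (-0.76 ± 0.18 SE on the log2 scale, adjusted p = 0.00211 in DESeq2). Serping1, the C1 inhibitor (-0.87, adjusted p = 0.0108), and C4b, a C4 gene with a near-identical copy (-0.81, adjusted p = 0.0378), were also lower. Calr and Cd93, which have been described as C1q-binding proteins and were chosen after their values were seen, had log2 fold changes of 0.07 and 0.09 (adjusted p = 0.934 and 0.919). Without WT 1, WT 5 or DKO 5, 0 of the 13 were called, without DKO 4 it was 1, without DKO 1 it was 6 and without WT 4 it was 7.

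Cd163 clears haemoglobin protein, and transcripts of red blood cell genes were read beside it. They moved the other way from Cd163, whose own change did not pass the threshold, and a link between them was not tested. Of 5 red blood cell genes, 4 were higher by DESeq2 and 0 lower (1.02% and 1.88% of all rows tested). Their summed normalized counts were 1261, 1772 and 863 for WT 1, 4 and 5, and 3167, 2824 and 2939 for DKO 1, 4 and 5. Hbb-bs had 758, 1072 and 590 counts against 2059, 1625 and 1511 (1.21 ± 0.19 SE on the log2 scale, adjusted p = 2.69e-07 in DESeq2). Of 8 genes that carry or recycle haemoglobin and its iron, 1 was lower and 0 higher (1.88% and 1.02% of all rows). That gene was Lrp1, a large endocytic receptor that takes up haem bound to haemopexin (-0.63, adjusted p = 0.00515), and it was not called without WT 5, DKO 4 or DKO 5. The median of the 8 was 0.09.

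Nckap1l belongs to a complex whose other subunits are mostly shared by all cells. Of 12 genes of the WAVE complex and its activators, 0 passed the threshold in DESeq2, 1 had an unadjusted p-value under 0.05 in each direction, and the median log2 fold change was -0.11. In edgeR 0 passed, with 2 lower and 1 higher at that unadjusted level. With DESeq2, 1 was called lower without WT 4, 0 without any other library, and 4 with total counts as size factors. Nckap1, the broadly used partner of Nckap1l, had 2638, 2628 and 2379 counts against 2241, 2421 and 1703 (-0.14, 95% interval -0.39 to 0.11, adjusted p = 0.734). Rac2, the blood-cell form of the activator Rac and chosen after its values were seen, had 176, 59 and 90 counts against 63, 47 and 25 (-1.18, adjusted p = 0.0869). Of 12 genes related in sequence or function to the 10, Lyz1 was the 1 called lower, beside 1.88% of all rows. The number lower was 0 without WT 1, WT 5, DKO 4 or DKO 5 and 3 without WT 4.

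**Figure D4:**
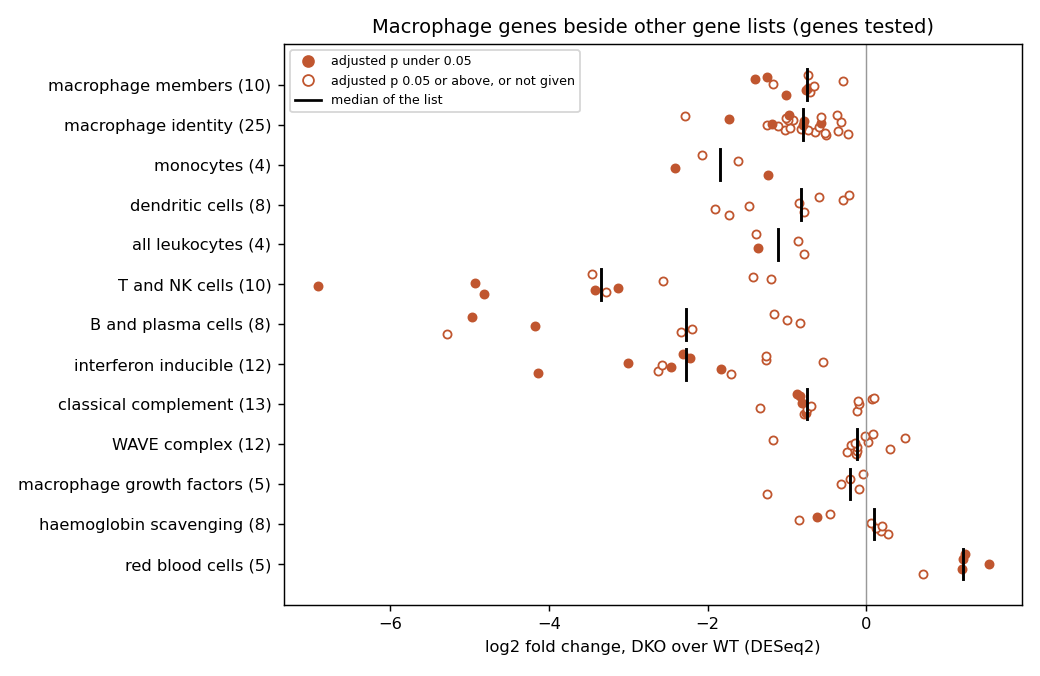
Log2 fold changes of DKO over WT from DESeq2 for the tested genes of each list (numbers in brackets), with filled points where the adjusted p-value was under 0.05 and a bar at each median. The medians of the macrophage lists lie at -0.75 and -0.80, those of T and natural killer (NK) cells and of interferon-inducible genes lie at -3.35 and -2.27, and that of red blood cells lies at 1.21.

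Markers of other leukocytes moved with the macrophage genes, and their part in these results was not tested. Each number lower by DESeq2 given next stands beside 1.88% of all rows tested. Of 4 general leukocyte genes, all 4 had negative log2 fold changes (median -1.11), and Cd53, a membrane protein of white blood cells, was called (-1.37, DESeq2 adjusted p = 0.00803). That number was 0 without WT 5 or DKO 5, 2 without DKO 1 and 4 without WT 4. Of 10 T and NK cell genes 5 were lower, with a median log2 fold change of -3.35 and summed normalized counts of 85.1 to 352 in WT against 21.9 to 56.0 in DKO. Cd8a, the co-receptor of cytotoxic T cells, had 38, 10 and 25 counts against 0 in each library labelled DKO. The 5 calls became 1 without WT 1, WT 5, DKO 4 or DKO 5, 3 without DKO 1 and 6 without WT 4. Of 8 B and plasma cell genes 2 were lower, Ms4a1 and Ighm, and the summed counts overlapped, from 2360 to 7653 against 713 to 3832. Leaving out WT 4 gave 4 calls among them, and leaving out any other library gave 1. Of 12 interferon-inducible genes 6 were lower, a number that was 2 without DKO 4, 3 without DKO 5, 4 without DKO 1, 5 without WT 5, 7 without WT 1 and 12 without WT 4. Among them Cxcl9, a chemokine made by macrophages after interferon gamma, had 144, 15 and 70 counts against 5, 4 and 3 (-4.14, adjusted p = 5.20e-06).

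Monocytes, which can replace resident macrophages, share several of the 10 transcripts. Of 4 monocyte genes tested 2 were lower by DESeq2, beside 1.88% of all rows. That number was 0 without WT 1, WT 5 or DKO 5, 1 without DKO 4, 3 without DKO 1 and 4 without WT 4. Ccr2, the chemokine receptor of inflammatory monocytes, had 440, 225 and 424 counts against 192, 155 and 80 (-1.24, SE 0.28, DESeq2 adjusted p = 0.00119), and Ly6c2 had 66, 14 and 50 against 16, 3 and 4 (-2.41, adjusted p = 0.0203). Neutrophils also express Lyz2, and their part in its change was not tested. Most genes of the neutrophil list were nearly absent. S100a8, S100a9, Ly6g, Retnlg, Cxcr2, Mpo and Elane had at most 3 counts in any library, and Csf3r, which monocytes express as well, was the 1 tested and called (-1.38, adjusted p = 0.0403), with the call kept only without WT 4 among the fits that dropped 1 library. All 8 dendritic cell genes had negative log2 fold changes (median -0.82), with 0 called by DESeq2 or edgeR and 4 at an unadjusted p-value under 0.05 by each. Without WT 4, 1 of them was called, and without DKO 1, 2 were. Itgax had 314, 158 and 213 counts against 187, 99 and 71 (-0.85, adjusted p = 0.109). Of 4 mast cell genes 0 were called by either test and 1 had an unadjusted p-value under 0.05 by each, with summed normalized counts of 18.6 to 46.5 against 3.46 to 21.8. Of 4 lymph node genes 0 were called by either test and 1 had an unadjusted p-value under 0.05 by each. Their summed normalized counts were 101, 24.5 and 42.1 in WT and 20.9, 17.8 and 21.9 in DKO, highest in WT 1. With edgeR, 0 genes of any of these lists passed after adjustment.

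**Figure D5:**
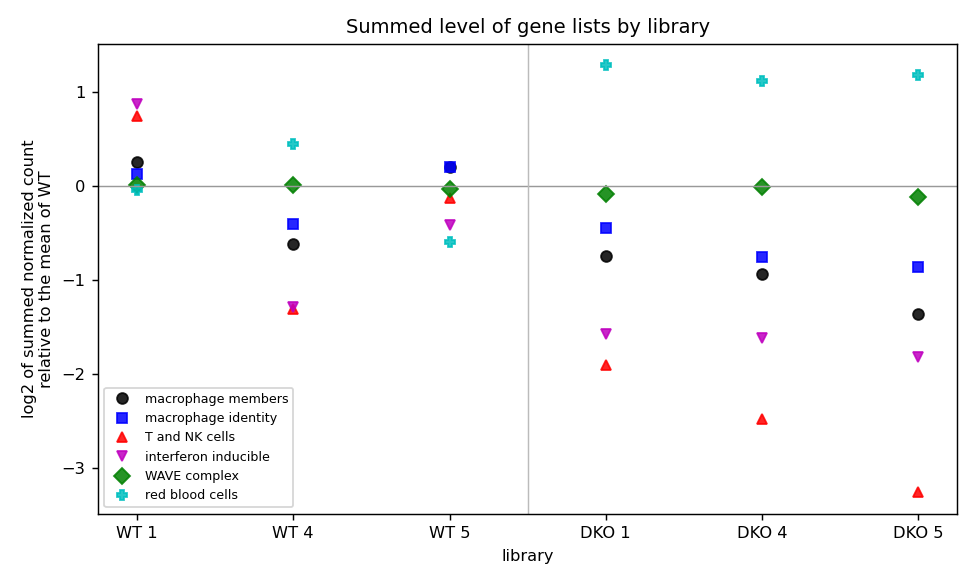
Summed normalized counts of 6 gene lists in each library, as the log2 ratio to the mean of the 3 libraries labelled WT. The macrophage genes, at 0.26, -0.61 and 0.20 in WT 1, 4 and 5 and at -0.74, -0.93 and -1.36 in DKO 1, 4 and 5, and the T and NK cell and interferon-inducible genes are lower in WT 4 than in WT 1 and WT 5, while the WAVE complex genes stay between -0.12 and 0.02.

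The rows most like the macrophage genes were found by the root-mean-square difference between centred log2 profiles over the 6 libraries, among 11481 rows with a mean of at least 50 normalized counts. In order these were Laptm5 (0.05 on the log2 scale), Thy1 (0.08), Cyba (0.09), Fyb (0.09) and Bnc2 (0.09). Laptm5 is a leukocyte lysosomal protein, Cyba encodes a subunit of the phagocyte NADPH oxidase, Fyb an adaptor of T cells and myeloid cells, Thy1 a surface protein of T cells, neurons and fibroblasts, and Bnc2 a zinc finger protein of stromal cells. Within the list, Nckap1l and C1qa lay closest to the median profile (0.08 and 0.09), and Lyz2 and Cd68 farthest (0.34 and 0.32), the first with a larger and the second with a smaller range over the libraries. Laptm5, already given in the macrophage identity list, was the 1 of the 5 rows with a DESeq2 adjusted p-value under 0.05. The 5 rows were picked for a profile like that of the macrophage genes, so their p-values are no separate result.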

How the data were processed

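Whole-gland RNA of 6 SMGs was made into Nextera XT libraries, which keep no strand, and read on a HiSeq2500. The submitters' processing notes name STAR 2.5.2a and the genome builds GRCm38, mm10 and GRCh38, the last of them human. The counting tool and annotation are not given in the sources used here. The tables the authors deposited hold raw counts by gene symbol, unfiltered (43280 rows) and filtered (17527 rows, identical values), and scaled values that were not used here. Rows with at least 10 counts over the 6 libraries were tested (18606) with DESeq2 1.42.0 in R 4.3.3, the test named by the study: median-of-ratios size factors, two-sided Wald test, default filters, Benjamini-Hochberg adjustment, threshold 0.05. DESeq2 left 2556 rows without an adjusted p-value. DESeq2 was also run on counts simulated from its own fitted model. Such a run checks the code and cannot show which of the tests suits these data. Alternatives were edgeR 4.0.16, limma 3.58.1 (voom), other size factors and filters, a replicate block and each library left out. No pair of libraries of a group agreed within sampling noise (chi-square per degree of freedom 16.8 to 43.4). The genes and lists were chosen with earlier results of these data known. Named were the 10 genes, up to 4 called genes of each other list or else its most abundant gene, and the 5 most similar rows. Gene positions, exon lengths and transcripts are from GENCODE M21, and promoters from RefSeq. Shared words were counted at 50 bases, since the sources used here give no read length.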

Additional observations from a re-analysis of the deposited data

How the results depend on the processing

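The macrophage genes kept a negative log2 fold change under every alternative run, and the median of the 10 moved by less than the spread between replicates. The number of them past the threshold was 5, and it was 0 with edgeR, 0 with limma-voom, 8 with total counts as size factors, and 1 to 8 with 1 library left out. Over all genes 539 passed, against 10 with edgeR (50% of them lower), 7 with limma-voom (57.1% lower), 1469 with total counts (95.8% of them lower, against 64.9%), and 149 to 817 with 1 library left out. The cause of these differences was not tested. With the replicate number as a block, 3 of the 10 and 343 of all genes passed. The numbers are not shown to pair the libraries, since deviations of same-numbered libraries correlated at -0.13, -0.02 and -0.26 for numbers 1, 4 and 5, and no library correlated best with its own number. Cd163, Aif1 and Cd68 had the lowest counts of the 10, from 20 to 101 per library, and the part of depth in their missing calls was not tested.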
